A study of Mus musculus with 21 samples.

Results

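The base of the cochlea was compared with its apex in spiral ganglion neurons that carried DN-HCN2, a site-mutated and dominant-negative form of the channel HCN2. The comparison is drawn between 7 of the study's 21 libraries, chosen by virus and region as their titles give them: 4 from the apex and 3 from the base. All mice were at postnatal day 7 and all had received an adeno-associated virus. The other conditions carried EGFP as the control (4 apex and 4 base libraries) or a truncated SK3 channel with dominant-negative effect (3 and 3). They show where the regional difference differs. Their libraries also entered the main fit of all 21 libraries, which estimated the spread of each gene behind the p-values. Each library pooled about 50 neurons drawn up by micropipette, and its polyadenylated RNA was amplified by the Smart-seq2 method. Promoter, serotype, dose and strain are not given in the sources used here. Within a group the libraries are labelled as biological replicates with no animal named, so p-values measure the spread between these libraries only. The regional comparison holds DN-HCN2 constant on both sides and by itself says nothing on the effect of the construct.

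Spiral ganglion neurons carry sound signals from hair cells to the brain. They are ordered by pitch along the cochlea, with low tones at the apex and high tones at the base, and the firing properties of the neurons change along the same axis. HCN channels open on hyperpolarization and carry an inward current, and SK channels are potassium channels opened by calcium. KChIPs, encoded by the Kcnip genes, are calcium-binding proteins that bind Kv4 potassium channels and set how many of them reach the membrane and how fast their A-type current inactivates.

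The genes on which the results turn are shown first by the bases before their start sites. The KChIP genes Kcnip4 and Kcnip1 moved in opposite directions between base and apex, Lancl3 was the third gene whose call stood without any single library, and Cd68 and Oscar are myeloid genes that were high in some base libraries. Sequences are the 250 bases before each RefSeq start site on GRCm38.p6, 5′ to 3′ on the gene's strand, and the table of promoters has several start sites for some genes. Capitals mark the motifs searched on both strands, neither of which contains the other. They are the pattern TGANTCA for the AP-1 element, with any base at N, and the PU.1 core GAGGAA.
Kcnip4, start site 1, minus strand, chr5:48599683-48599932: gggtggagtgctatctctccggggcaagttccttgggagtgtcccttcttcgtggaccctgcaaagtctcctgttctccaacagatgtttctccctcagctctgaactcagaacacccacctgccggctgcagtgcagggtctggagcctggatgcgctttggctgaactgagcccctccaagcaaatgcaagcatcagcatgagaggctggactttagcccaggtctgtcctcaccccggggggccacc
Kcnip4, start site 2, minus strand, chr5:49285660-49285909: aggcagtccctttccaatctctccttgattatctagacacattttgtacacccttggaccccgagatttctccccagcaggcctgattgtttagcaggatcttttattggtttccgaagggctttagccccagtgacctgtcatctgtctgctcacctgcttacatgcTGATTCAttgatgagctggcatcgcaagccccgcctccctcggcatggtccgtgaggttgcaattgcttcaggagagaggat
Kcnip1, start site 1, minus strand, chr11:33680683-33680932: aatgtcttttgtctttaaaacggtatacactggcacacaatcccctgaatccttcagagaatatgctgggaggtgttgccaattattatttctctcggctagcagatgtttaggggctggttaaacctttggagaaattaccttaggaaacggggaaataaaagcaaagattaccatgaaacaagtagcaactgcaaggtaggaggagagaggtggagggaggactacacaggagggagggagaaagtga
Kcnip1, start site 2, minus strand, chr11:33843687-33843936: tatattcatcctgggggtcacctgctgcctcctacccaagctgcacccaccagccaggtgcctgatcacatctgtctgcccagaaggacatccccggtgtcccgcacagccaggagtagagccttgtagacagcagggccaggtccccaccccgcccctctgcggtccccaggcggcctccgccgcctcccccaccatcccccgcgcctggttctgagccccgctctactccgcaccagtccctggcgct
Kcnip1, start site 3, minus strand, chr11:33993194-33993443: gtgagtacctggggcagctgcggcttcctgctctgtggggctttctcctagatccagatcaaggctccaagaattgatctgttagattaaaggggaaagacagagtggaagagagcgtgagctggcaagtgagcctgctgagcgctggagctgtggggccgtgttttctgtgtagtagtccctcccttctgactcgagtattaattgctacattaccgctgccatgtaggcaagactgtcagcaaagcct
Lancl3, plus strand, chrX:9199723-9199972: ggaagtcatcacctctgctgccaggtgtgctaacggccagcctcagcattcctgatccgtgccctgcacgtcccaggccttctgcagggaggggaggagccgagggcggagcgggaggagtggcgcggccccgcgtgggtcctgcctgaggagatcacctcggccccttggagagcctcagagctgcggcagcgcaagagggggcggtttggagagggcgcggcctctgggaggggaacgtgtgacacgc
Cd68, minus strand, chr11:69666171-69666420: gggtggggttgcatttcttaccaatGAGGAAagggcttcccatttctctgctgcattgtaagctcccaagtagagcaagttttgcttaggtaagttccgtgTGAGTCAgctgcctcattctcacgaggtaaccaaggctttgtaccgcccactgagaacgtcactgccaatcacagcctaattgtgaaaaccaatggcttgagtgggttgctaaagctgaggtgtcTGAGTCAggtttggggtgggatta
Oscar, minus strand, chr7:3616158-3616407: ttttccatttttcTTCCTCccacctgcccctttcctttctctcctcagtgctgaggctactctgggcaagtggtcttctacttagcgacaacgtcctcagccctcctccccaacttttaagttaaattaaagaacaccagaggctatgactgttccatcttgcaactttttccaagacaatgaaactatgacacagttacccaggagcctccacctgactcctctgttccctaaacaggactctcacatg

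Among the KChIP windows the second of Kcnip4 held a match of the AP-1 pattern, TGATTCA, and the others held neither motif. The Cd68 window held a PU.1 core and AP-1 matches, and the Oscar window held a PU.1 core on the opposite strand. Over the list of macrophage markers, 15 of 21 promoters (71.4%, 18 genes with an entry) held the PU.1 core, against 7639 of 32851 promoters (23.3%) in the whole table. For the genes called in the comparison the share was 7 of 31 promoters (22.6%, 22 genes), and for the potassium channel list it was 11 of 57 (19.3%, 35 genes). The AP-1 pattern, with its free middle base, stood in 6.75% of all promoters and in 3 of 31 promoters of the called genes (9.68%). A match describes the letters of the window and no binding was measured.

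Of 14968 genes tested, edgeR's quasi-likelihood test called 32 between base and apex under DN-HCN2 at an adjusted p under 0.05, which is 0.214% of the tested genes. Of these, 17 (0.114%) were higher in the base and 15 (0.1%) were lower. Unadjusted p-values under 0.05 numbered 1806 (12.1%). Totals of the 7 libraries ran from 10825369 to 15138780 counts, and the median log2 fold change over all tested genes was 0.00. Every base library was above every apex library for 544 genes (3.63%) and below for 429 (2.87%); of the 32 called genes 16 were separated upward and 15 downward, and Oscar overlapped. Rank correlations between libraries spanned 0.894 to 0.938 within the apex and 0.875 to 0.915 within the base, and base replicate 3 stood farthest out on the first principal component of the 7 libraries, which held 28.4% of their variance.

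How far the calls rest on single libraries was measured by refitting without each in turn. Kcnip4, Kcnip1 and Lancl3 were called in all 7 such fits, and the other 29 calls ended in at least 1. Of the 32 genes, 30 remained called without apex replicate 1 and 29 without base replicate 1. Only 7, 4 and 5 remained without apex replicates 2, 3 and 4, and 5 and 9 without base replicates 2 and 3. A fit on the 7 libraries alone called Kcnip4 only (edgeR adjusted p = 0.0377), and limma-voom with sample quality weights called none, with 1184 unadjusted p-values under 0.05, while DESeq2 called 379 genes, among them all 32.

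**Figure D1:**
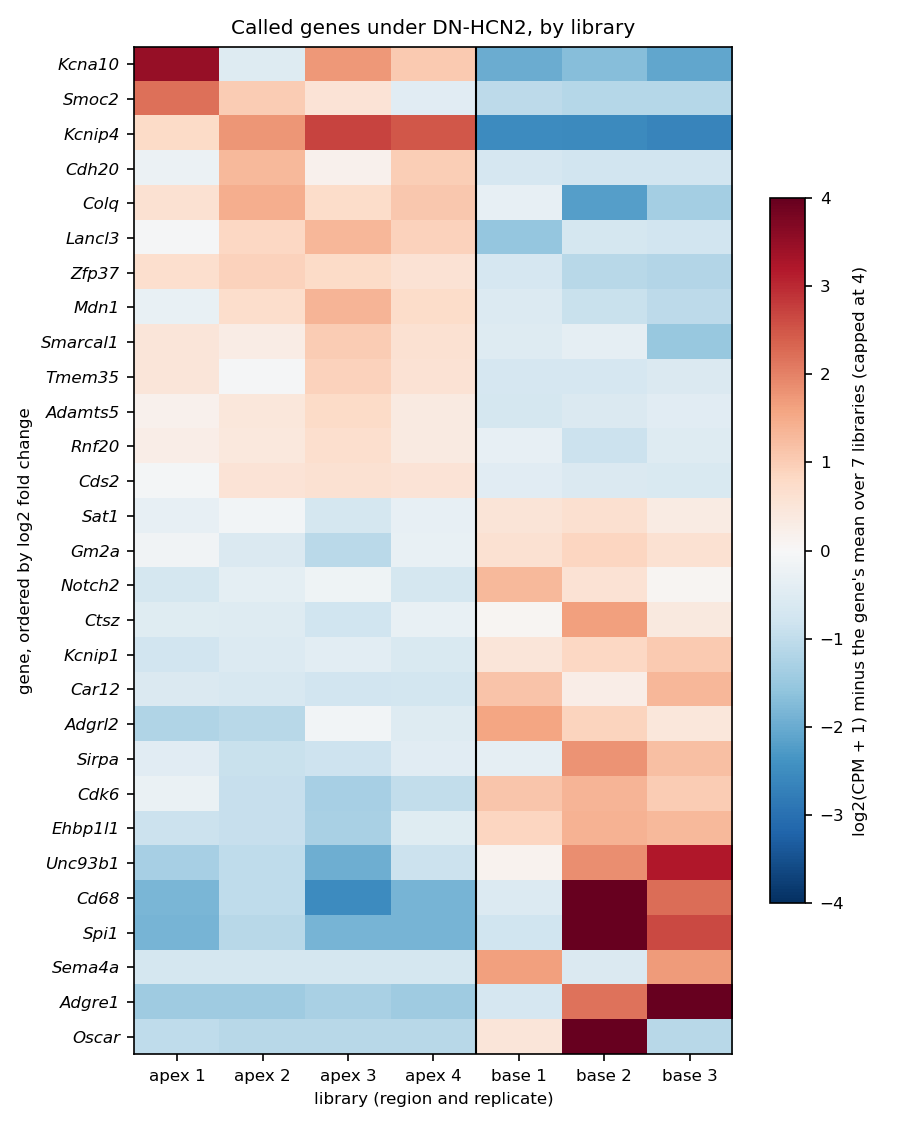
Levels of 29 of the 32 called genes (rows, ordered by log2 fold change) in the 7 DN-HCN2 libraries (columns), as log2(CPM + 1) minus the mean of the gene over the 7 libraries, with colors capped at 4. The genes at the top are lower in all 3 base libraries, while Cd68, Spi1 and Adgre1 near the bottom are red in base replicates 2 and 3 and pale in base replicate 1.

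Kcnip4 was the most clearly separated gene. It lies on chr5:48389502-49524907 (GRCm38, GENCODE M21) and encodes KChIP4, a KChIP with splice forms that slow the inactivation of Kv4 channels. Its level in CPM, counts relative to the scaled library total, was 17.2, 36.1, 69.9 and 59.0 in apex replicates 1 to 4 and 0.870, 0.834 and 0.734 in base replicates 1 to 3. The groups were far apart, with 2427 counts over the apex libraries and 30 over the base libraries, a pooled ratio of 53.4 (95% counting interval 37.3 to 79.4, which covers counting error only). Base against apex gave a log2 fold change of -5.79 (SE 0.691, edgeR adjusted p = 0.000676). It lay between -6.06 and -5.50 without any 1 library, where the highest adjusted p was 0.0127. The limma-voom fit gave -5.50 (SE 1.65, adjusted p = 0.34).

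The same direction was measured in the other conditions. Kcnip4 spanned 13.6 to 36.3 CPM in control apex against 1.22 to 8.51 CPM in control base, and 48.4 to 68.6 CPM in truncated SK3 apex against 2.18 to 7.45 CPM in truncated SK3 base, so that apex and base did not overlap in any of the 3 conditions. The regional difference on the log2 scale was -2.62 (SE 0.512, edgeR adjusted p = 0.228) in control and -3.74 (SE 0.619, edgeR adjusted p = 0.044) under truncated SK3. The difference of these regional differences, tested as an interaction in the same fit, was -3.17 on the log2 scale for DN-HCN2 minus control (SE 0.778, edgeR adjusted p = 0.215) and -2.05 for DN-HCN2 minus truncated SK3 (SE 0.819, edgeR adjusted p = 0.458). Neither passed the threshold, so the fall toward the base was not shown to be particular to DN-HCN2.

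Kcnip1 moved the other way. Its gene, on chr11:33629339-33993152, encodes KChIP1, which raises Kv4 current at the membrane. It measured 53.4, 61.2, 68.1 and 59.2 CPM in the apex and 126, 162 and 187 CPM in the base, and every base library stood above every apex library. Base against apex differed by 1.39 on the log2 scale (SE 0.18, edgeR adjusted p = 0.00126), between 1.25 and 1.51 without any 1 library. The control libraries overlapped, with 70.1 to 117 CPM in the apex and 97.4 to 124 CPM in the base (log2 fold change 0.27, SE 0.167, edgeR adjusted p = 1), and truncated SK3 had 56.4 to 68.4 CPM against 112 to 143 CPM (log2 fold change 0.99, SE 0.195, edgeR adjusted p = 0.12). The interaction was 1.12 against control (SE 0.246, edgeR adjusted p = 0.184) and 0.40 against truncated SK3 (edgeR adjusted p = 0.674).

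**Figure D2:**
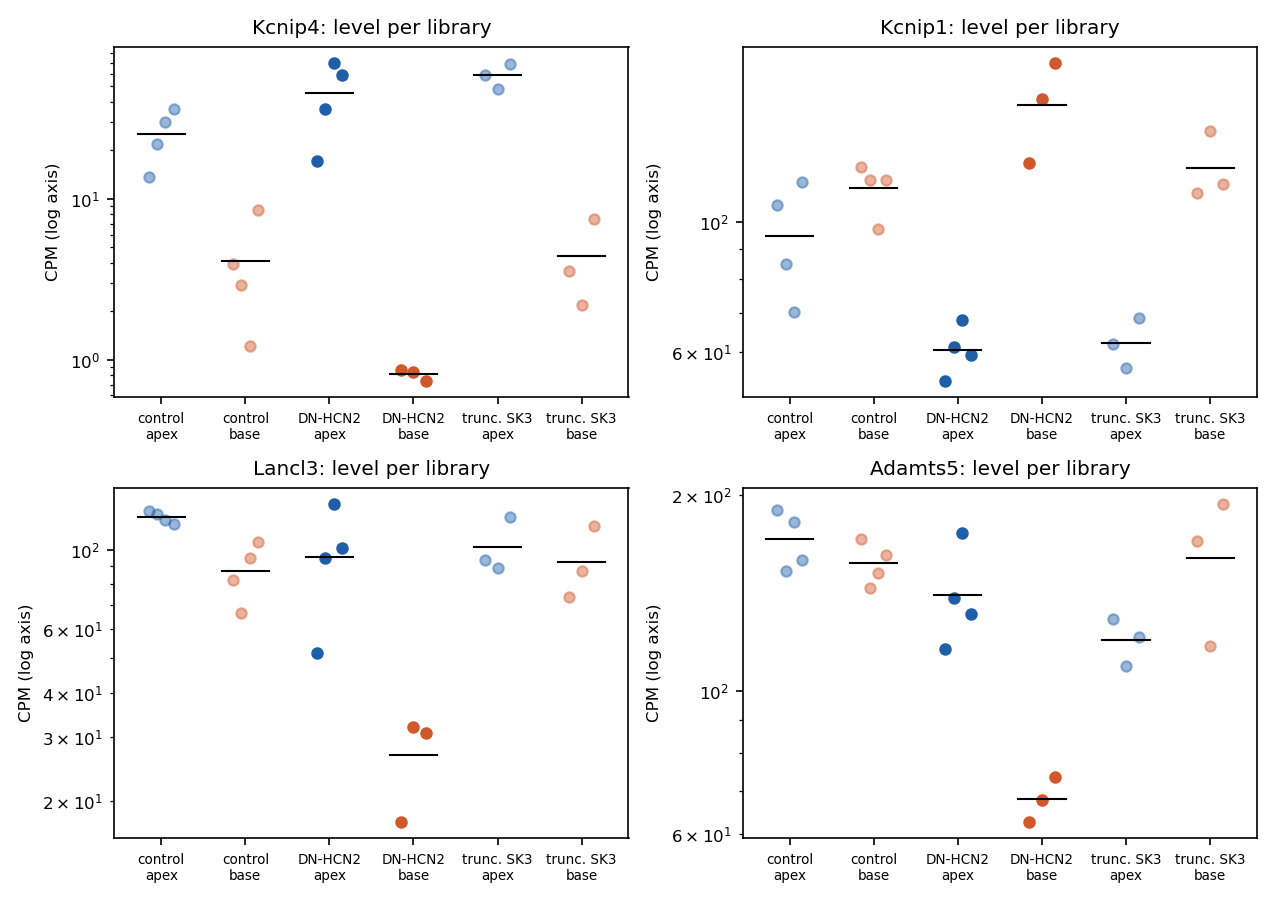
Level in CPM (log axis) of Kcnip4, Kcnip1, Lancl3 and Adamts5 in each of the 21 libraries, with 1 point per library, blue for apex and orange for base, full color for DN-HCN2, and a line at the mean of each group. Kcnip4 is below 1 CPM in all 3 DN-HCN2 base libraries, and Lancl3 and Adamts5 are lower there than in any other group.

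The rest of the Kv4 complex was measured alongside, chosen after its values were seen. Kcnip2, which encodes KChIP2, was at 74.5, 76.4, 73.3 and 80.1 CPM in the apex and at 84.2, 187 and 199 CPM in the base. The groups did not overlap, base replicate 1 being close to the apex, with a log2 fold change of 1.04 (SE 0.244, edgeR adjusted p = 0.0741). Kcnip3, which encodes KChIP3 and also acts as a transcriptional repressor, overlapped between regions, with 28.3 to 62.0 CPM against 30.2 to 70.7 CPM (edgeR adjusted p = 0.633). The pore-forming Kv4.2 gene Kcnd2 had 4.38 to 10.8 CPM in the apex and 4.89, 4.91 and 0.183 CPM in the base (log2 fold change -0.94, SE 0.773, edgeR adjusted p = 0.665). Kcnd3, the Kv4.3 gene, stayed under 8 CPM in all 7 libraries and was not called.

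Of the 45 potassium channel genes of the list that were tested, Kcnip1 was called higher and Kcnip4 lower, and 31 of 45 had a log2 fold change below 0. The list's median was -0.59, beside 0.00 over all tested genes and beside -0.01 in control and -0.09 under truncated SK3. It became -1.01 without base replicate 1 and -0.40 without apex replicate 3. Among the 3 list members with the highest level, Kcna1, the Kv1.1 gene, had 248, 542, 1180 and 525 CPM in the apex and 313, 328 and 286 CPM in the base, with apex replicate 1 below the base libraries and the other apex libraries above them (log2 fold change -1.02, SE 0.309, edgeR adjusted p = 0.178). Kcnk1, a gene of the K2P leak channels, was at 611 to 911 CPM against 504 to 940 CPM (edgeR adjusted p = 0.789), and Kcnh2, which encodes the ERG channel, at 198 to 309 CPM against 220 to 334 CPM (edgeR adjusted p = 0.937).

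Further members were looked at after their values were seen. Kcnq3, a voltage-gated channel subunit, was at 13.3, 45, 123 and 49 CPM in the apex and at 27.0, 14.2 and 6.79 CPM in the base (log2 fold change -1.84, SE 0.568, edgeR adjusted p = 0.186). The inward rectifier Kcnj3 had 3.92, 5.51, 12.9 and 9.63 CPM in the apex, and 0.937, 1.48 and 0 CPM in the base (log2 fold change -3.29, SE 0.769, edgeR adjusted p = 0.0741). Apex replicate 3 held the highest level of Kcna1, Kcnq3 and Kcnj3, and its summed neuronal markers, at 27950 CPM, were also the highest of the 7 libraries; the part of that library in these values was not tested beyond leaving it out. Without apex replicate 1 and base replicate 1 together, 2 of the 45 tested members of the potassium channel list were called higher and 7 lower. That fit called 541 of all 14968 genes tested, against 32 in the main fit.

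**Figure D3:**
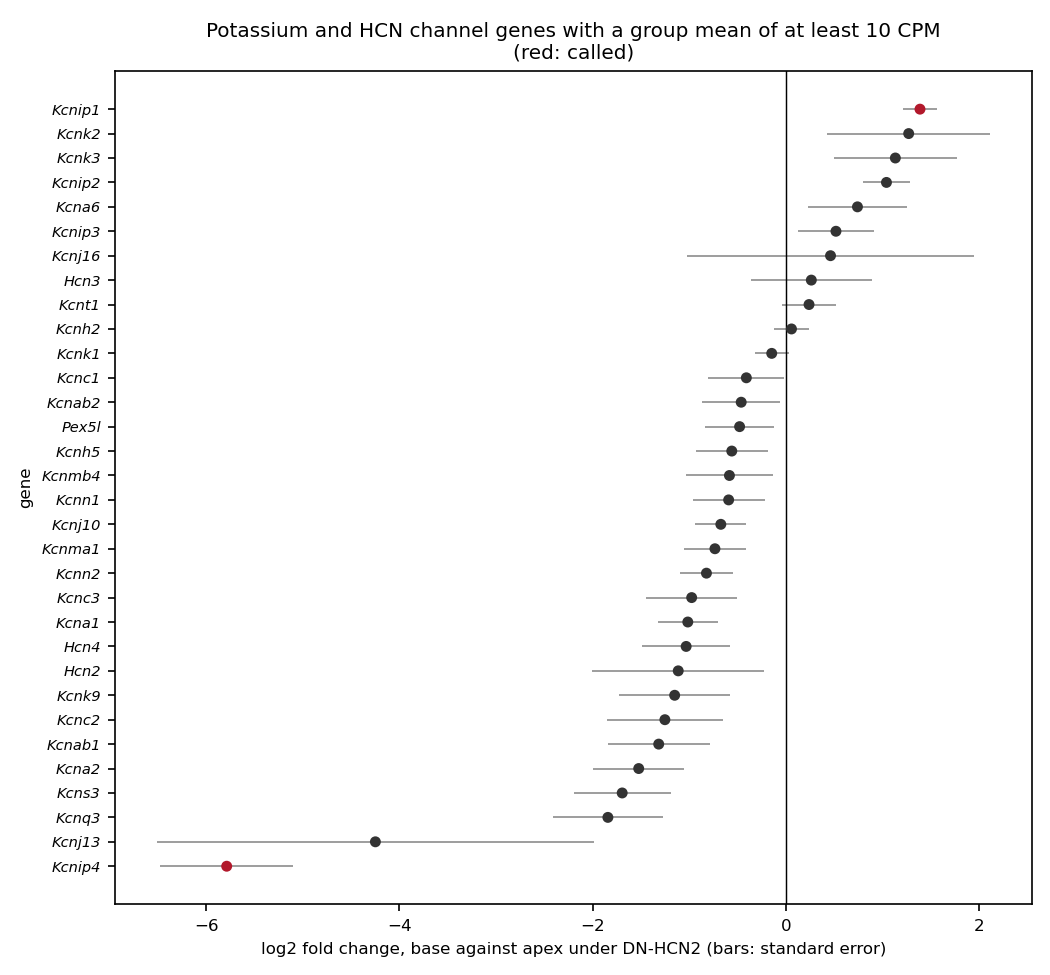
Log2 fold change of base against apex under DN-HCN2 (horizontal axis, bars: standard error) for 32 potassium and HCN channel genes whose mean reached 10 CPM in either region, with called genes in red. Of the 32 genes 22 lie below 0, and Kcnip4 and Kcnip1 alone are called.

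Hcn2, whose mutated form the virus carried, was at 14.6, 31.7, 122 and 80.7 CPM in the apex and at 29.7, 21.6 and 34.9 CPM in the base. The base libraries fell within the apex range, with a log2 fold change of -1.11 (SE 0.892, edgeR adjusted p = 0.658). Controls had 18.8 to 39.4 CPM (apex) and 9.84 to 89.8 CPM (base), so DN-HCN2 libraries did not stand above them as a group. Whether reads of the insert are in the count of Hcn2 was not tested, and this gene therefore does not check the labels. Kcnn3, the SK3 gene, stayed under 1 CPM in all 7 libraries (log2 fold change -0.28, SE 1.67, edgeR adjusted p = 0.969), and its direction turned without base replicate 2 (0.295) and after correction for GC content and length (0.03).

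The list of HCN channel genes, which also holds the HCN-binding protein gene Pex5l, had no called member, and 4 of 5 lay below 0. Hcn4 was at 17.1 to 24.7 CPM against 10.4, 15.5 and 2.84 CPM (log2 fold change -1.03, edgeR adjusted p = 0.362), and the groups did not overlap. Hcn3 was at 8.89 to 20.2 CPM against 17.4 to 23.6 CPM (edgeR adjusted p = 0.908). The list's median of -1.03 (control -0.13, truncated SK3 -0.24) became -0.56 without apex replicate 3 and -0.60 without base replicate 3.

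Lancl3 fell in the base. It lies on chrX:9199902-9268085 and encodes a member of the LanC-like protein family. It measured 51.6, 94.6, 134 and 101 CPM in the apex and 17.4, 32.1 and 30.8 CPM in the base, each base library lying below every apex library. The base was lower by a log2 fold change of -1.83 (SE 0.277, edgeR adjusted p = 0.00838), and the call stood in all 7 fits without 1 library (highest adjusted p = 0.0323) and with base replicate 1 as the sole base library (adjusted p = 0.0295). Controls held 118 to 128 CPM (apex) and 66.7 to 105 CPM (base), and truncated SK3 libraries 89.0 to 123 CPM and 74.0 to 116 CPM. The interaction was -1.34 against control (edgeR adjusted p = 0.287) and -1.70 against truncated SK3 (edgeR adjusted p = 0.328).

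Adamts5, on chr16:85856173-85901828, encodes a secreted protease that cuts aggrecan and other matrix proteoglycans. It was at 116, 139, 175 and 131 CPM in the apex and at 62.6, 67.7 and 73.6 CPM in the base, with no overlap. Base against apex gave a log2 fold change of -1.05 (SE 0.173, edgeR adjusted p = 0.0216), called in 5 of 7 fits without 1 library, and the call ended without apex replicate 3 (adjusted p = 0.0782) and after correction for GC content and length (adjusted p = 0.18). Under truncated SK3 the difference went the other way, at 0.42 (SE 0.18), and the interaction between those conditions was -1.46 (edgeR adjusted p = 0.0618). Against control the interaction was -0.92 (edgeR adjusted p = 0.215).

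Further genes fell in the base. Colq (chr14:31523082-31591343), which encodes the collagen tail that anchors acetylcholinesterase, was at 32.1, 58.0, 34.6 and 44.9 CPM in the apex and at 16.3, 3.71 and 7.52 CPM in the base (log2 fold change -2.20, SE 0.432, edgeR adjusted p = 0.0472). It was also lower in the base of control (13.7 to 29.1 CPM against 35 to 69.9 CPM) and of truncated SK3 (11.3 to 17.2 CPM against 20.9 to 44.3 CPM), without passing the test there (edgeR adjusted p = 0.473 and 0.437). Zfp37, a zinc finger gene, was at 22 to 27.8 CPM in the apex and at 8.70, 6.12 and 5.87 CPM in the base (log2 fold change -1.83, edgeR adjusted p = 0.0472). Mdn1, which encodes the ribosome assembly ATPase midasin, was at 15.5, 32.1, 51.8 and 33.1 CPM against 12.9, 10.1 and 8.90 CPM (log2 fold change -1.64, edgeR adjusted p = 0.0472), apex replicate 1 being close to the base.

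Smarcal1, an annealing helicase of stalled replication forks, had 29.3 to 49.4 CPM in the apex and 16.3, 18.3 and 7.71 CPM in the base (log2 fold change -1.40, edgeR adjusted p = 0.0472). Rnf20, a ubiquitin ligase for histone H2B, had 70.7 to 94.7 CPM against 46.2, 31.5 and 40.5 CPM (log2 fold change -1.02, edgeR adjusted p = 0.0472). Tmem35, which encodes a chaperone of nicotinic acetylcholine receptors, had 45.1 to 89.2 CPM against 28.9, 28.8 and 30.7 CPM (log2 fold change -1.20, edgeR adjusted p = 0.0407). Cds2, which makes CDP-diacylglycerol for phosphoinositide synthesis, had 60.5, 93.8, 97.5 and 94.7 CPM against 47.1, 43.0 and 42.0 CPM (log2 fold change -0.97, edgeR adjusted p = 0.035). In these genes the base libraries lay below every apex library, and each call stood in 2 or 3 of the 7 fits without 1 library.

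Some genes were close to 0 in all base libraries. Kcna10, a voltage-gated potassium channel gene known from hair cells and outside the channel list, was at 46.2, 1.91, 13.1 and 7.62 CPM in the apex and at 0.067, 0.278 and 0 CPM in the base, 996 counts against 4 (edgeR adjusted p = 0.0472). It was also high in single libraries elsewhere, up to 73.5 CPM in truncated SK3 apex. Cdh20, a type II cadherin gene, was called from the cadherin list with 0.457, 3.20, 0.912 and 2.39 CPM in the apex and 1 count in all base libraries together (pooled ratio 64.1, 95% counting interval 11.2 to 2560.0, edgeR adjusted p = 0.0472), while control base libraries had 4.89 to 5.77 CPM. Smoc2, a matrix protein gene named after its values were seen, had 9.01, 3.40, 2.16 and 0.598 CPM against 1 count over the base (pooled ratio 147, interval 26.0 to 5820.0, edgeR adjusted p = 0.0473).

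Among the genes higher in the base, Adgrl2 encodes latrophilin-2, an adhesion receptor of synapses. It lies on chr3:148815583-148990555 and was at 9.54, 10.1, 21.5 and 16.0 CPM in the apex and at 72.0, 44.0 and 32.1 CPM in the base, with no overlap. Its fold change came to 1.79 on the log2 scale (SE 0.32, edgeR adjusted p = 0.035), and with base replicate 1 as the sole base library it was 2.34 (adjusted p = 0.0194). Controls were also separated, with 27.9 to 34.2 CPM (apex) and 61.4 to 91.6 CPM (base) (log2 fold change 1.39, SE 0.299, edgeR adjusted p = 0.247), and the interaction was 0.41 (edgeR adjusted p = 0.913). It was the called member of the synaptic adhesion list, where 40 of 56 tested genes lay below 0 and the median was -0.34 (-0.08 without apex replicate 3 and -0.61 without base replicate 1). The call ended without apex replicate 2 (adjusted p = 0.0873).

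Cdk6, a kinase that drives entry into the cell cycle, was at 10.6, 6.40, 4.56 and 6.05 CPM in the apex and at 29.3, 35.1 and 27.4 CPM in the base (chr5:3341485-3531008, log2 fold change 2.14, SE 0.395, edgeR adjusted p = 0.035). All 3 base libraries were near each other and above the 5.84 to 15.8 CPM of every control and truncated SK3 library. Ehbp1l1, which takes part in vesicle transport, was at 4.31 to 8.22 CPM against 22.7, 33.1 and 30.8 CPM (log2 fold change 2.23, edgeR adjusted p = 0.0472). Sema4a, a semaphorin and the called member of the axon guidance list, had 0 counts in all 4 apex libraries and 61, 1 and 46 counts in the base, at least 54.5-fold higher against a floor of 3 counts over the apex group (edgeR adjusted p = 0.0472). Control libraries held 0.697 to 8.09 CPM of Sema4a in both regions.

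Named after their values were seen, Notch2 and Sat1 were also called higher. Notch2, a receptor of cell fate signalling, was at 26.3 to 39.3 CPM in the apex and at 110.0, 65.6 and 46.6 CPM in the base (log2 fold change 1.24, SE 0.249, edgeR adjusted p = 0.0472), highest in base replicate 1, and the call stood with base replicate 1 as the sole base library (1.81, adjusted p = 0.012). Sat1, which acetylates polyamines, was at 148 to 222 CPM against 347, 378 and 306 CPM (log2 fold change 0.87, SE 0.165, edgeR adjusted p = 0.0381). In control and truncated SK3 the regional difference of Sat1 was -0.04 and -0.06.

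Macrophage markers and other myeloid genes were high in 2 of the 3 base libraries. The 24 macrophage markers summed to 84.1, 94.1, 61.9 and 63.3 CPM in the apex, to 94.3 CPM in base replicate 1, and to 2297 and 2170 CPM in base replicates 2 and 3. All 24 had a log2 fold change above 0, with a median of 5.14 (control -2.28, truncated SK3 0.84), and 3 were called, among them Adgre1 and Cd68. Without base replicates 2 and 3 the median was 0.38, with 13 of 24 above and 11 below 0. Chosen after their values were seen, C1qc and Fcer1g were at 0 in base replicate 1. Lyz2 and Tyrobp, chosen likewise, were at 3.88 and 3.68 CPM there, above their level in every apex library. In libraries of pooled cells, more cells of a type and more RNA per cell cannot be told apart.

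Adgre1, which encodes the macrophage surface protein F4/80, had 1 count in the 4 apex libraries and 10, 119 and 469 counts in the base (0.67, 11.0 and 43.0 CPM, edgeR adjusted p = 0.0472). Cd68, a lysosomal protein of phagocytes whose promoter is shown above, was at 0.849, 2.31, 0.166 and 0.822 CPM in the apex and at 3.55, 306 and 30.2 CPM in the base (log2 fold change 6.74, SE 1.34, edgeR adjusted p = 0.0472). Spi1, which encodes the myeloid transcription factor PU.1, was at 0 to 0.680 CPM against 1.07, 103 and 21.3 CPM (edgeR adjusted p = 0.0472). Oscar, a receptor gene of osteoclasts and other myeloid cells, had 1 count in the apex, 30 and 672 in base replicates 1 and 2 and 0 in base replicate 3 (edgeR adjusted p = 0.035). Its rise came from 1 library above all, and the call ended without base replicate 2 (adjusted p = 0.208).

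Other called genes were measured in every apex library as well. Unc93b1, which carries Toll-like receptors to endosomes, was at 1.99 to 5.38 CPM against 11.7, 40.8 and 106 CPM (log2 fold change 3.75, SE 0.696, edgeR adjusted p = 0.035). Sirpa, the receptor for CD47, was at 14.1 to 19.2 CPM against 20.6, 95.2 and 63.3 CPM (log2 fold change 1.83, SE 0.345, edgeR adjusted p = 0.0381). Ctsz, the gene of the protease cathepsin Z, and Gm2a, the gene of a lysosomal ganglioside activator, were named after their values were seen. Ctsz was at 93.9 to 133 CPM against 173, 510.0 and 214 CPM (log2 fold change 1.38, edgeR adjusted p = 0.0472) and Gm2a at 62.1 to 119 CPM against 204, 238 and 204 CPM (log2 fold change 1.19, edgeR adjusted p = 0.0472).

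With base replicate 1 as the sole base library, which is assumed to vary like the other groups, the log2 fold change was 0.30 for Sirpa, 0.59 for Ctsz and 1.58 for Unc93b1, none of them called. Gm2a kept a value of 1.12 there (adjusted p = 0.235), with base replicate 1 at 204 CPM, as high as base replicate 3. In that fit edgeR called 17 genes, of which 4 were among the 32: Lancl3, Adgrl2, Notch2 and Sema4a. Kcnip4 and Kcnip1 had log2 fold changes of -5.69 and 1.05 there (adjusted p = 0.0627 and 0.0799) and were not called.

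**Figure D4:**
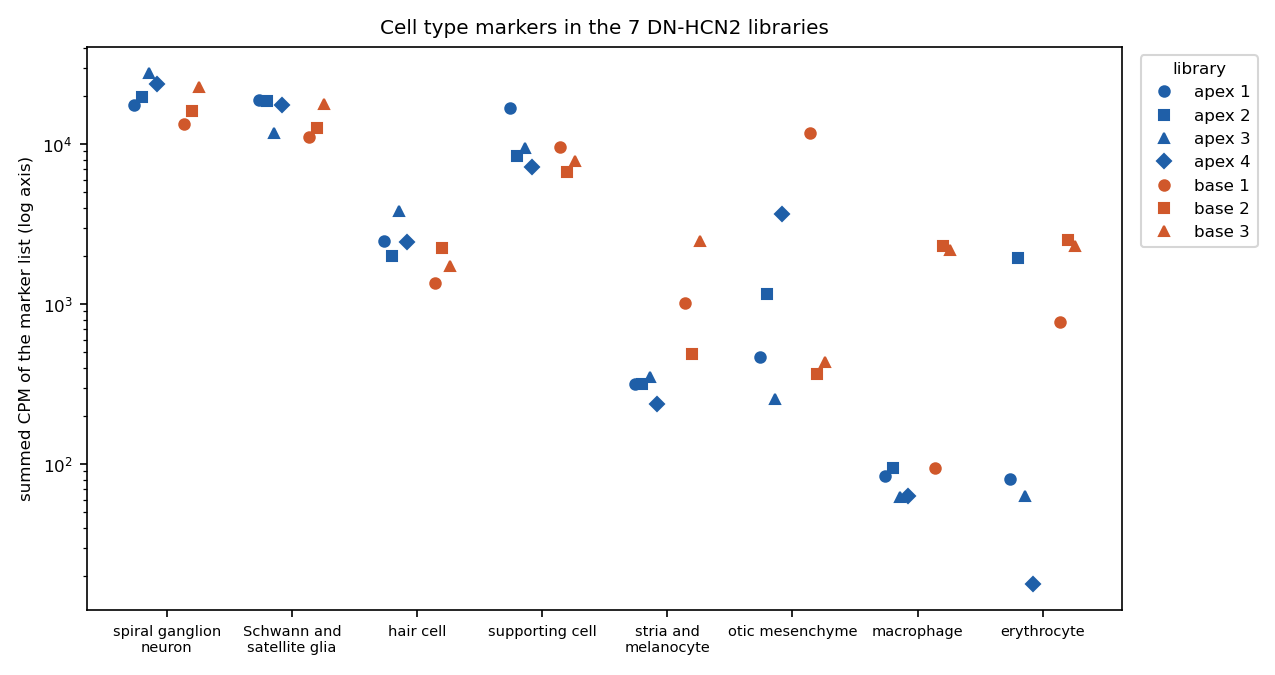
Summed CPM (log axis) of 8 lists of cell type markers in the 7 DN-HCN2 libraries, blue for apex and orange for base, with the symbol giving the replicate. The neuron, glia and hair cell sums lie close together, whereas the macrophage sum of base replicates 2 and 3 is 2297 and 2170 CPM and that of the other 5 libraries is 94.3 CPM or less.

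The neuronal identity of the libraries was checked against 20 markers. They summed to 17450 to 27950 CPM in the apex and to 13350, 16070 and 22880 CPM in the base, and none was called. Calb2, which encodes calretinin and is known as a marker of a subtype of type I neurons, was at 2520.0, 3950.0, 7170.0 and 5990.0 CPM in the apex and at 2720.0, 2600.0 and 4210.0 CPM in the base (log2 fold change -0.63, edgeR adjusted p = 0.388). The light neurofilament gene Nefl and the SNARE gene Snap25 overlapped between regions (edgeR adjusted p = 0.713 and 0.749). Markers of Schwann and satellite glia were present in all libraries, with sums of 11780 to 18960 CPM (apex) and 11080 to 17750 CPM (base). Of 25 glial markers 22 lay below 0, with a median of -0.34 (-0.57 without base replicate 3), and none was called.

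Strial markers were higher in the base libraries. Genes of the stria vascularis, the epithelium that makes the potassium-rich endolymph, summed to 238.4 to 348.1 CPM in the apex and to 1015, 484 and 2490 CPM in the base. Of 16 tested, 14 lay above 0 (median 2.24, control 1.63, truncated SK3 0.35) and Car12 was called. Car12, a membrane carbonic anhydrase on chr9:66713686-66766845, was at 63.7, 60.3, 55.8 and 57.1 CPM in the apex and at 211, 114 and 241 CPM in the base (log2 fold change 1.67, SE 0.308, edgeR adjusted p = 0.035), and the call ended without apex replicate 3 (adjusted p = 0.109). Atp1b2, a beta subunit of the sodium pump, was at 34.9 to 135 CPM against 365, 242 and 1340.0 CPM (log2 fold change 3.12, SE 0.681, edgeR adjusted p = 0.0689). Kcne1, the beta subunit of the strial potassium channel and chosen after its values were seen, was under 1 CPM in the apex and in base replicate 2 and at 123 and 454 CPM in base replicates 1 and 3. Melanocyte genes of the list were looked at after their values were seen. The melanin enzyme gene Tyrp1 was at 0 in all 7 libraries. Dct was at 1.05, 0, 0 and 0 CPM in the apex and at 6.56, 5.65 and 4.40 CPM in the base (log2 fold change 4.32, edgeR adjusted p = 0.381). Tyr and Mlana reached at most 1.87 CPM, with log2 fold changes of 1.61 and 5.61. Mitf had 0.20, and Pmel went the other way, at -0.61.

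Hair cell markers went the other way. Of 25 tested, 24 lay below 0 with a median of -2.31, none was called, and the medians of control (-3.21) and truncated SK3 (-3.54) had the same sign. Pvalb, which neurons also express, made up most of the sum, which was 2478, 2001, 3818 and 2431 CPM in the apex and 1363, 2225 and 1724 CPM in the base. Of the 25 members, 15 were highest in apex replicate 1, 8 in apex replicate 3 and 1 in apex replicate 4, and 1 tied between apex replicate 1 and base replicate 3. Otof, the gene of otoferlin at hair cell synapses, was at 94.8, 1.91, 21.9 and 0.672 CPM against 1.21, 0.556 and 0.183 CPM (edgeR adjusted p = 0.287), and the hair cell factor Pou4f3 at 43.2, 0.068, 7.13 and 4.03 CPM against 0.134, 0.185 and 0.0917 CPM (edgeR adjusted p = 0.252). Slc17a8, the gene of the hair cell glutamate transporter VGLUT3, was highest in apex replicate 3, at 8.43, 1.70, 26.2 and 0.373 CPM against 2.34, 1.20 and 0.642 CPM (edgeR adjusted p = 0.449), and so was the calcium-binding protein gene Ocm, at 155 CPM against 6.01 CPM in apex replicate 1. These 4 were chosen after their values were seen. Kcna10, reported above, was also highest in apex replicate 1, at 46.2 CPM, and the part of hair cell RNA in its fall was not tested. Without apex replicate 1 and base replicate 1 the hair cell median was -1.34.

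Markers of other cell types were uneven between libraries. Markers of the otic mesenchyme summed to 11730 CPM in base replicate 1, above the 255.2 to 3658 CPM of the apex and the 367.6 and 432.1 CPM of the other base libraries, led by Car3 and Otor. Supporting cell markers were highest in apex replicate 1, at 16880 CPM against 6686 to 9535 CPM elsewhere, through the tectorial membrane gene Tectb at 7150.0 CPM. Hemoglobin and other erythrocyte genes summed to 1938 CPM in apex replicate 2 and to 775.6, 2496 and 2317 CPM in the base, and to at most 80.7 CPM in the other apex libraries. Oligodendrocyte markers summed to 365.2 to 509.8 CPM in the apex and to 283.8 to 399.4 CPM in the base. In the other conditions the base held more, at 537.3 to 3144 CPM in control and 640.4 to 6424 CPM under truncated SK3. The median of that list was -0.12, beside 6.03 in control and 5.04 under truncated SK3. The part of these cells in the regional calls was not tested beyond leaving libraries out. Without apex replicate 1 and base replicate 1 edgeR called 541 genes, among them 30 of the 32.

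Genes known to grade along the cochlear axis showed no call. The list of 42 such genes had 12 above and 30 below 0 with a median of -0.39 (control -0.10, truncated SK3 -0.18), which became -0.23 without apex replicate 3. Type I neuron subtype genes had 7 above and 14 below 0, and Ttn, named after its values were seen, was at 10.6, 11.2, 24.9 and 15.8 CPM in the apex and 41.1, 53.9 and 32.2 CPM in the base (log2 fold change 1.44, SE 0.415, edgeR adjusted p = 0.148). The 34 synaptic vesicle genes had no call and a median of -0.12, which was -0.06, 0.03 and -0.28 without apex replicate 3, base replicate 1 and base replicate 3. The 17 calcium channel genes had none with a median of -0.33, which was -0.88 without base replicate 1 and -0.22 without apex replicate 3. The axon guidance list had 30 above and 29 below 0 with a median of 0.07, which was -0.34 without base replicate 1. Among its members with the highest level, Sema3e was at 71.1, 189, 441 and 205 CPM in the apex and 89.2, 76.2 and 44.7 CPM in the base (log2 fold change -1.69, edgeR adjusted p = 0.0741). Sema5a was at 88.0, 142, 239 and 158 CPM against 89.0, 59.0 and 59.4 CPM (log2 fold change -1.18, edgeR adjusted p = 0.0541). In all, 6 of the 37 lists with at least 3 tested genes had a called member and 31 had none.

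Lists of cell state had no called member. Nuclear genes of oxidative phosphorylation lay below 0 in 52 of 56 cases with a median of -0.25 (control 0.18, truncated SK3 0.29), which became -0.12 without apex replicate 3; in the 7 fits without 1 library 45 to 54 of the 56 stayed below 0, and without base replicates 2 and 3 all 56 did (median -0.58). Immediate early genes lay above 0 in 21 of 25 cases with a median of 0.37, and the median was -0.08 with 12 of 25 above 0 without base replicate 1; it was 0.23, 0.69 and 0.58 without apex replicate 3, apex replicate 4 and base replicate 3. Cell cycle genes had a median of 1.57, and of -0.15 without base replicate 1, whose sum was 635.5 CPM against 147.6 to 347.8 CPM in the other libraries. Fos, the immediate early gene with the highest level, was at 1610.0, 1650.0, 972 and 2340.0 CPM against 1970.0, 2200.0 and 1980.0 CPM (edgeR adjusted p = 0.686).

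The regional difference under DN-HCN2 was set against that of the other conditions. These contrasts share no library with it, though all take the spread of each gene from the same fit. In control edgeR called no gene between base and apex, with 722 unadjusted p-values under 0.05 (4.82% of those tested). Under truncated SK3 it called 2, both lower in the base (0.0134%), with 1434 unadjusted p-values under 0.05 (9.58%). Of the 32 genes, 25 had the same direction in control, 24 under truncated SK3 and 19 in both. The test of the difference itself called 1 gene against control (0.00668%), Adgre1 (edgeR adjusted p = 0.0278), and 0 against truncated SK3 (1353 unadjusted p-values under 0.05, DESeq2 114 and limma-voom 1) or against the mean of both (1457 unadjusted, DESeq2 155 and limma-voom 0). Adgre1 was at 3.25, 0.926, 0.61 and 16.1 CPM in control apex and at or below 0.0872 CPM in control base, the reverse of its direction under DN-HCN2, and of the 7 fits without 1 DN-HCN2 library this call stood in the one without base replicate 1 only. With no gene called against truncated SK3, no regional difference was shown to be particular to DN-HCN2.

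**Figure D5:**
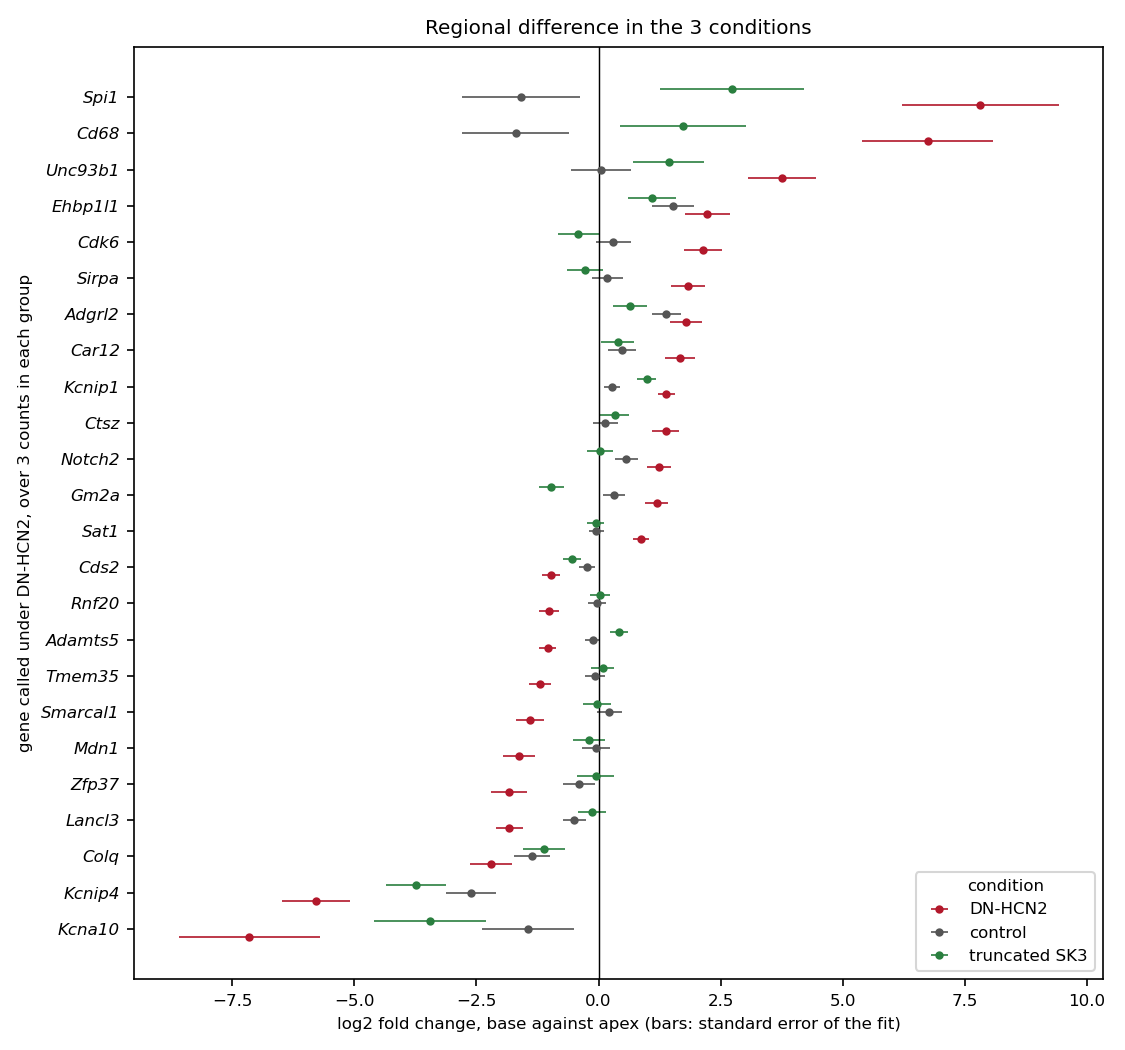
Regional log2 fold change (horizontal axis, base against apex; bars: standard error) of 24 called genes with over 3 counts in each DN-HCN2 group, in DN-HCN2 (red), control (gray) and truncated SK3 (green). Kcnip4, Colq and Adgrl2 lie on the same side of 0 in all 3 conditions, whereas Sat1, Rnf20 and Smarcal1 lie near 0 in the other conditions.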

How the data were processed

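The authors deposited 1 table of whole-number read counts per gene symbol with a column for each library (21878 lines, 3555 of them at 0 throughout). Trimmomatic, HISAT2, DESeq2 and the builds GRCm38 and mm10 are named per the submitters' processing notes; counter, annotation and strand setting are not given in the sources used here, so reads of overlapping or antisense genes cannot be told apart. Library totals ran from 10411634 to 15138780 counts. Libraries were grouped by virus and region from their titles.

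Counts were filtered with filterByExpr by group (14968 genes left), normalized by TMM, and edgeR 4.0.16 under R 4.3.3 fitted its quasi-likelihood model (robust) to all 21 libraries at once, a mean for each of the 6 groups. Benjamini-Hochberg adjustment ran over all tested genes, with calls at an adjusted p under 0.05. Standard errors follow from the F statistic, and CPM are counts over the scaled total. Interactions were contrasts of the same fit. Alternatives used DESeq2 1.42.0, limma 3.58.1 (voom), other filters and scalings, the replicate number as a block, and fewer libraries. The code was tested on simulated data.

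Symbols were matched to GENCODE M21 (14455 of 14968, 96.6%), whose coordinates are printed. No called gene shared at least 20% of its 50-base stretches with another gene. Promoters are from RefSeq (GRCm38.p6).

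The text names Hcn2 and Kcnn3, of the called genes that reach a mean of 10 CPM in either region the 12 largest rises and the 12 largest falls, up to 4 called members of a list and its 3 members with the highest level, without predicted genes and pseudogenes. Genes outside this rule are said to be named or chosen after their values were seen, or stand where a family is given whole. Members and gene lists were chosen with earlier results of these data known. Of the 32 called genes 3 are not reported here, and neither are some other members of the lists. Figures were drawn with Python 3.11.15 and matplotlib 3.10.9.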

Additional observations from a re-analysis of the deposited data

Results flagged for a closer look

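In groups of 4 libraries, a library was marked where its gap to the nearest other library, divided by the range of the group, exceeded Dixon's critical value at the 95% level. Of 64 such tests 7 marked a library. The usual rate of about 1 in 20 by chance does not hold where all other libraries of a group are at 0. There any count is marked, as for Adgre1, Oscar and Spi1. Adgre1 stood apart in apex replicate 3, at 0.0829 CPM from 1 count against 0 in the other apex libraries, and Oscar in apex replicate 1, at 0.0653 CPM from 1 count. Spi1 stood apart in apex replicate 2, at 0.68 CPM against 0 elsewhere in the apex. Cds2 was low in apex replicate 1, at 60.5 CPM against 93.8 to 97.5 CPM. The other 3 concern apex replicate 2, where the summed level was 1938 CPM for erythrocyte genes, 347.8 CPM for cell cycle genes and 2271 CPM for interferon response genes. H2-D1, a class I histocompatibility gene, led the last of these with 1230.0 CPM in apex replicate 2 against 39.3 to 77.8 CPM in the other apex libraries.

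The regional difference of Adgre1 differed between DN-HCN2 and control by the test of the interaction (edgeR adjusted p = 0.0278). It rests on base replicates 2 and 3 of DN-HCN2 and on control apex, where replicate 4 had 16.1 CPM, and the sums of the macrophage markers were 2297, 2170 and 703.6 CPM in those 3 libraries.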

How the results depend on the processing

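Against 32 calls, edgeR called 18 with no low-count filter, 1 on the 7 libraries alone and from 4 to 175 without 1 library; DESeq2 called 379 and limma-voom 0. It called 17 without base replicates 2 and 3, 541 without apex replicate 1 and base replicate 1, and, chosen after seeing the data, 7 without apex replicate 3 and base replicate 3. For the interaction with control (1 call), DESeq2 called 123, limma-voom 0 and edgeR 0 to 34 without 1 library. For that with truncated SK3 (0 calls) the counts were 114, 1 and 0 to 3, and for that with the mean of both (0 calls) DESeq2 called 155 and edgeR 0 to 32 without 1 library.

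With the replicate number as a block over all libraries edgeR called 4 of the 32 genes between base and apex, and 3 with the block within a condition; the interaction with control then called 0 in either fit. Whether same-numbered apex and base libraries share animals is not given. Those of DN-HCN2 deviated with correlations of -0.0356, 0.00732 and 0.0302, and its other pairs with -0.0573 to 0.0666. Same-numbered libraries of truncated SK3 had 0.0554, 0.0642 and 0.132, above its other pairs at -0.0856 to 0.0316. In control they had -0.0749 to 0.118, and the other pairs -0.169 to 0.184. Correlations this small cannot decide whether the numbers pair the libraries.

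Over all settings and called genes, 305 values kept direction and call, 330 kept the direction and lost the call, and none turned. Kcnn3 turned, from -0.276 to 0.0317 after correction for GC content and length, and it ran from -1.20 to 0.295 without 1 library, positive without base replicate 2. That correction and the removal of genes that share sequence were chosen after seeing the data. With 3 base libraries, 2 of them rich in macrophage markers, the regional difference within neurons and that of the other cells in the pipette cannot be told apart for genes both express.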

Other observations

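Genes known from type II neurons, the unmyelinated neurons that contact outer hair cells, marked single libraries. Th, the rate-limiting enzyme of catecholamine synthesis, was at 90.1 CPM in apex replicate 2, at 1.11 CPM or less in the other apex libraries and at 0 in the base. Plk5 was also highest in apex replicate 2, at 65.9 CPM, and Calca, the gene of the neuropeptide CGRP, was at 30.5 CPM in base replicate 3 and 5.09 CPM in base replicate 1. Of 11 type II genes tested, 5 lay above and 6 below 0, and none was called.

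Cartilage and bone genes lay above 0 in 13 of 14 cases (median 1.40), but without base replicate 1 in 8 of 14 (median 0.28), and the median was 2.24 without apex replicate 1. Col2a1, the main collagen gene of cartilage, was at 6120.0 CPM in base replicate 1 against 193 to 531 CPM in the other base libraries and 87.7 to 1450.0 CPM in the apex. Of 24 genes of cholesterol synthesis 19 lay below 0, with a median of -0.21 that ran from -0.17 without apex replicate 1 to -0.36 without base replicate 1. No member of these lists was called.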
